A study of Drosophila melanogaster with 3 samples.

Results

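Eip74EF (FBgn0000567, 3L 17558672–17619325, minus strand, dm6) held 25 of the 9095 peaks at which the ecdysone receptor EcR was mapped in whole Drosophila pupae. The gene encodes the Ets-domain transcription factor E74. Its peaks were chosen by position: a peak of the optimal list (the submitters' list thresholded by the irreproducible discovery rate) was taken when its summit, the peak's highest point, lay in the gene body or in the 2 kb upstream of its outermost start. The region is 62.7 kb long. Within that list the choice used position alone, and not rank, replicate match or sequence. The submitters derived the list itself from the replicates, so ranks and replicate matches are not independent of it.

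Chromatin immunoprecipitation followed by sequencing was done on the strain EcR-GFP, a transgenic line that stably expresses EcR with eGFP fused to its C-terminus, using an antibody against GFP. All samples were whole pupae of mixed sex, labelled 24 hours old, and the 3 biological replicates, each from its own biosample, form 1 group. No untagged line, other stage or hormone treatment was analysed here, so the values describe where the tagged receptor was found and not a change. The promoter that drives the fusion is not given in the sources used here, and a whole animal mixes many cell types, so a peak cannot be placed in any of them. The depth of the libraries is unknown. Each replicate has a list of 30000 peaks, a fixed length that takes in weak ones.

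Ecdysone is the steroid that sets the timing of moulting and metamorphosis in insects. It binds a heterodimer of EcR and ultraspiracle, which sits on DNA at target genes. Eip74EF is a classic early gene of this response: it lies in the puff at 74EF of the larval salivary gland polytene chromosomes, one of the early puffs that ecdysone induces directly. It is transcribed as nested units. The long E74A unit and the short E74B unit encode proteins that share the C-terminal Ets DNA-binding domain and differ at the N-terminus, and in larvae E74B is induced at lower hormone levels than E74A.

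In the annotation 5 transcripts start at 3 positions. Transcripts RA, RC and RE share the long start at 3L 17619325 and span 59168 bp. RB starts at 17576626, which is 42699 bp further into the gene, and RD at 17576320. The last 3 exons are common to all 5 transcripts, whereas the exons that encode the N-termini differ between the long and the short ones. No other gene body overlaps that of Eip74EF. The 2 kb upstream regions of CycT and anchor, and the gene Vps60, reach into its region, but none of the 25 peaks lies in a region of these neighbours.

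The sequences at the 3 strongest summits, at the companion summit of one of them and at both promoters are shown first. Each is 101 bases of the dm6 assembly read 5′ to 3′ on the strand of the gene, centred on the summit, except that the RB sequence begins just outside the annotated transcript and runs upstream from there. Capitals mark exact copies of the 6-base receptor site, which is AGGTCA in its standard form, with AGTTCA as one accepted variant, GGGTCA as another, plus GGTTCA, or the reverse complement of any of them.
Rank 6 (chr3L:17611900-17612000, minus strand): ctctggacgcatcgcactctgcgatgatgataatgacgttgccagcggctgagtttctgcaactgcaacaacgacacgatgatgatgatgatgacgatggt
Rank 30 (chr3L:17590677-17590777, minus strand): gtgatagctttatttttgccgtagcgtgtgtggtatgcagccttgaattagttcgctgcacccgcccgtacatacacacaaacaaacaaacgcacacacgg
Rank 195 (chr3L:17590883-17590983, minus strand): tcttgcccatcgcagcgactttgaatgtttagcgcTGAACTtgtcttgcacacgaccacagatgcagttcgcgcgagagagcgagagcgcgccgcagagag
Rank 52 (chr3L:17563867-17563967, minus strand): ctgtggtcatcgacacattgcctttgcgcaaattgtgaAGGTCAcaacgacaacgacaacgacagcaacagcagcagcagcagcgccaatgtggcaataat
Rank 403, upstream side of the RB start (chr3L:17576627-17576727, minus strand): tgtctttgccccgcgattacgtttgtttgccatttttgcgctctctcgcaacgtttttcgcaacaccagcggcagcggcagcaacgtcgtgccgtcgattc
Rank 1168 (chr3L:17619360-17619460, minus strand): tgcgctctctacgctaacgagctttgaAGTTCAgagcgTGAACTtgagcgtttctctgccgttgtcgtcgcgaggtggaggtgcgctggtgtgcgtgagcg

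Binding was spread over nearly the whole length of the gene and lay mostly in introns. Of the 25 summits, 23 (92%) lay in introns, 1 in the 5′ UTR of RB and 1 upstream of the long start, and 0 lay in coding sequence. Among all optimal peaks 56.7% lay in an intron and in no exon. Only 3 summits (12%) lay within 500 bp of a start of the gene, against 36.5% of all optimal peaks within 500 bp of any annotated start. The median distance to the nearest Eip74EF start was 7375 bp, whereas the median over all optimal peaks was 1127 bp to the nearest start of any gene. Among the 134 protein-coding genes with at least 10 summits the medians were 88.7% in introns and 10.6% at own promoters, close to the values of Eip74EF. Whether these shares follow from gene length was not tested.

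The part read only by the long transcripts, from just upstream of the RB start to the long start, is 42.7 kb and held 15 summits, or 0.351 per kb. The part that the long transcripts and RB both read is 16.5 kb and held 9, or 0.546 per kb. The 3′ end beyond it, read by RD alone, held none. The optimal list as a whole has 0.0679 summits per kb of the assembled chromosome arms. Ranks ran from 6 to 8572 in the long-only part, with a median of 3560, and from 52 to 8044 in the common part, with a median of 1194. Both parts therefore held strong and weak peaks, and the ranges overlap almost entirely.

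**Figure D1:**
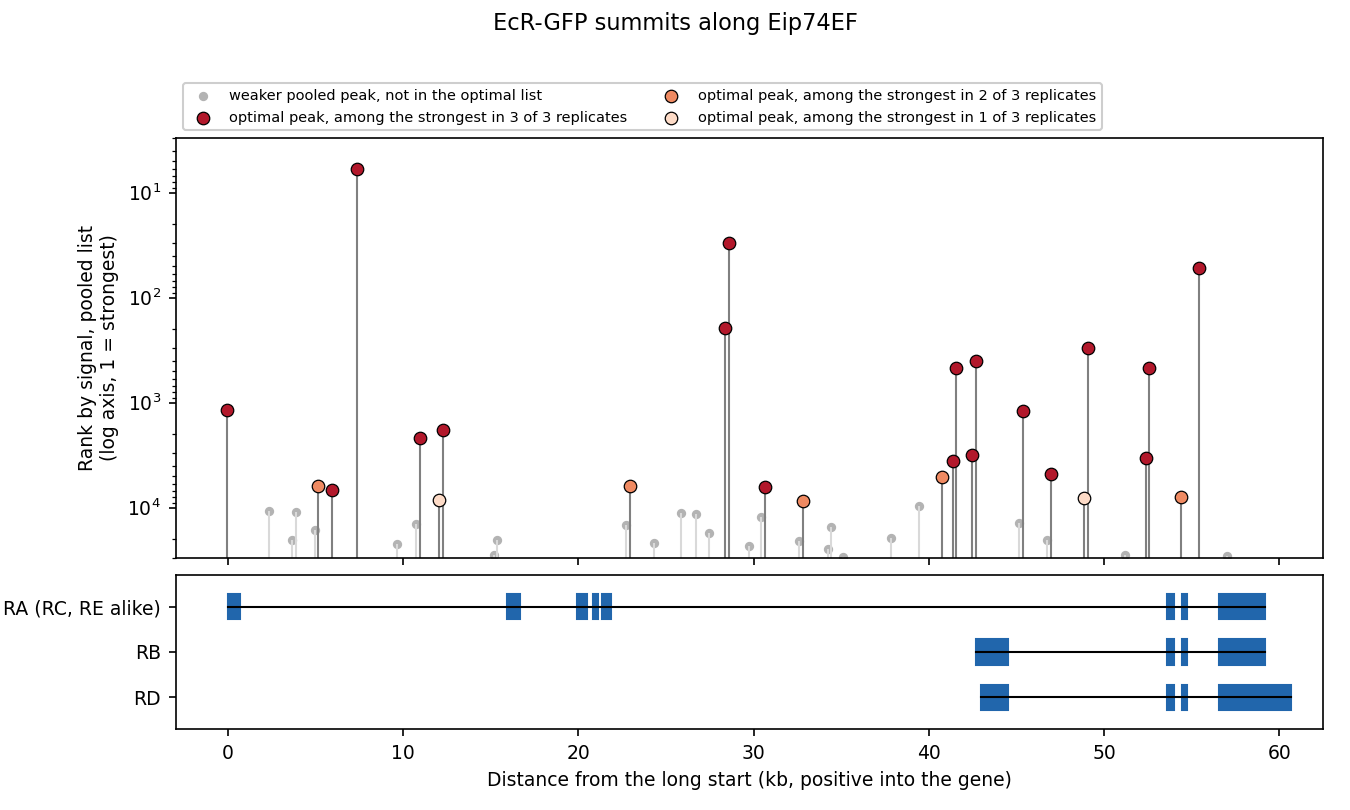
Map of the summits along Eip74EF, with distance from the long start in kb on the x axis and rank by signal on the y axis (log, strongest at the top); boxes below are exons and lines introns. The 25 optimal summits (coloured by the number of replicates in which they were among the strongest) cover both units, and the strongest, at rank 6, stands 7375 bp into the first intron of the long transcripts.

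Peaks were unevenly divided among the introns. Intron 5 of the long transcripts, 31734 bp long and containing both short starts, held 16 summits in 10 separate peak regions. The 16 include the summit in the 5′ UTR of RB, which was not counted among the 23 intronic summits above. Of the 16, 6 summits in 4 regions also lay in intron 1 of the short transcripts (9067 bp). Intron 1 of the long transcripts, 15267 bp long, held 6 summits in 5 regions. The short last introns, of 496 and 1847 bp, held 1 each. Introns 2, 3 and 4 of the long transcripts held none. The longest stretch with no optimal summit, 10666 bp from 17596399 to 17607065, contains those introns, the second exon and the exons with the coding sequence that only the long transcripts carry. The pooled list, which goes far below the optimal threshold, had 3 weak summits there, of 25 in the whole 62.7 kb region.

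The strongest peak of the gene was in the first intron of the long transcripts, at 3L 17610895–17612648 with its summit at 17611950, 7375 bp downstream of the long start. It ranked 6 in the optimal list and 7 in each of replicates 1, 2 and 3. The next summit of the gene ranked between 25 and 37 in the replicates, so the strongest stood apart in all 3.

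The next strongest was in intron 5, at 17590119–17591419, where 1 region of 1301 bp held a pair of summits 206 bp apart. The stronger, at 17590727, ranked 30 in the optimal list and 26, 25 and 37 in replicates 1, 2 and 3 (29.3 ± 6.66, mean and SD, n = 3). The weaker, at 17590933, ranked 195, and 211, 310 and 249 in the replicates (257 ± 49.9, SD, n = 3). The pair lies 14101 and 14307 bp upstream of the RB start and 28598 and 28392 bp downstream of the long start, far from both promoters.

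The third strongest was at the other end of the gene, in the 1847 bp intron just before the last exon, which every transcript shares. Its summit at 17563917 ranked 52 in the optimal list and 48, 51 and 54 in replicates 1, 2 and 3 (51.0 ± 3.00, SD, n = 3). The 3 strongest peaks therefore lay in 3 different introns, and their replicate ranks did not overlap.

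At the short promoter the summit at 17576625 was 1 bp from the annotated start of RB, inside its 5′ UTR, and 305 bp upstream of the RD start. It ranked 403 in the optimal list and 476, 409 and 388 in replicates 1, 2 and 3 (424 ± 46.0, SD, n = 3). A companion summit 221 bp upstream, at 17576846, was weaker and less steady, with ranks of 5005, 5215 and 1937. Next to it, a region of 2147 bp held 3 more summits upstream of the RB start. The one at 17577751, 1125 bp upstream, ranked 468 in the optimal list and 471, 648 and 412 in the replicates. The other summits of that region, 1339 and 1919 bp upstream, ranked 3560 and 5105.

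At the long promoter there was 1 summit, at 17619410, 85 bp upstream of the start. It ranked 1168 in the optimal list and 1090, 1058 and 1398 in replicates 1, 2 and 3 (1182 ± 188, SD, n = 3). In every replicate it was weaker than the summit at the RB start, with no overlap between their ranks (388 to 476 against 1058 to 1398). Both summits were ranked in the same 3 libraries, so the values form 3 pairs. That is too few for a permutation test to give a small p, and none was run. Transcript levels were not analysed here.

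Within the body of the short unit, intron 1 held 2 further strong summits. The one at 17570253, 6373 bp downstream of the RB start, ranked 304 and in the replicates 343, 333 and 280. The one at 17566751 ranked 466, and 500, 469 and 489 in the replicates. Each had a weaker companion summit in the same region, 222 and 203 bp away, at ranks 8044 and 3354. A separate peak at 17573943 ranked 1194.

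Of the 25 summits, 8 (32%) were among the 500 strongest optimal peaks, which make up 5.50% of the list. The number 500 was chosen after the ranks were seen; no more were added among the 1000 strongest, and 4 were among the 250 strongest. In the replicates' own lists 8, 7 and 8 summits of the region were among the 500 strongest. A further 4 ranked between 1168 and 2151, at the long promoter, in the shared intron just downstream of the RB start, and, at 17607065 and 17608392, in the first intron of the long transcripts. The other 13 ranked from 3158 to 8572. The median percentile of signal within the optimal list was 65.3, and the lowest was 5.76, so the gene held both some of the strongest and some of the weakest optimal peaks.

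The order of the strong peaks was repeated in the 3 replicates. The first 5 summits stood in the same order within the gene in each, and the 8 strongest in the optimal list were the 8 strongest in every replicate, with ranks of at most 648. Going down the order, 5 of the 24 neighbouring pairs had replicate ranks that did not overlap. These separate ranks 6 from 30, 30 from 52, 52 from 195, 304 from 403, and 468 from 1168. The ranges of the other 19 pairs overlapped. In 9 of the 24 pairs, 4 of them with overlapping ranges, the stronger summit also led in all 3 replicates, and in the other 15 it did not. Over the summits matched in both replicates of a pair, ranks had a Spearman rho of 0.942 for replicates 1 and 2 (24 summits), 0.961 for 1 and 3 (24) and 0.891 for 2 and 3 (25), a description of points that share their libraries.

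**Figure D2:**
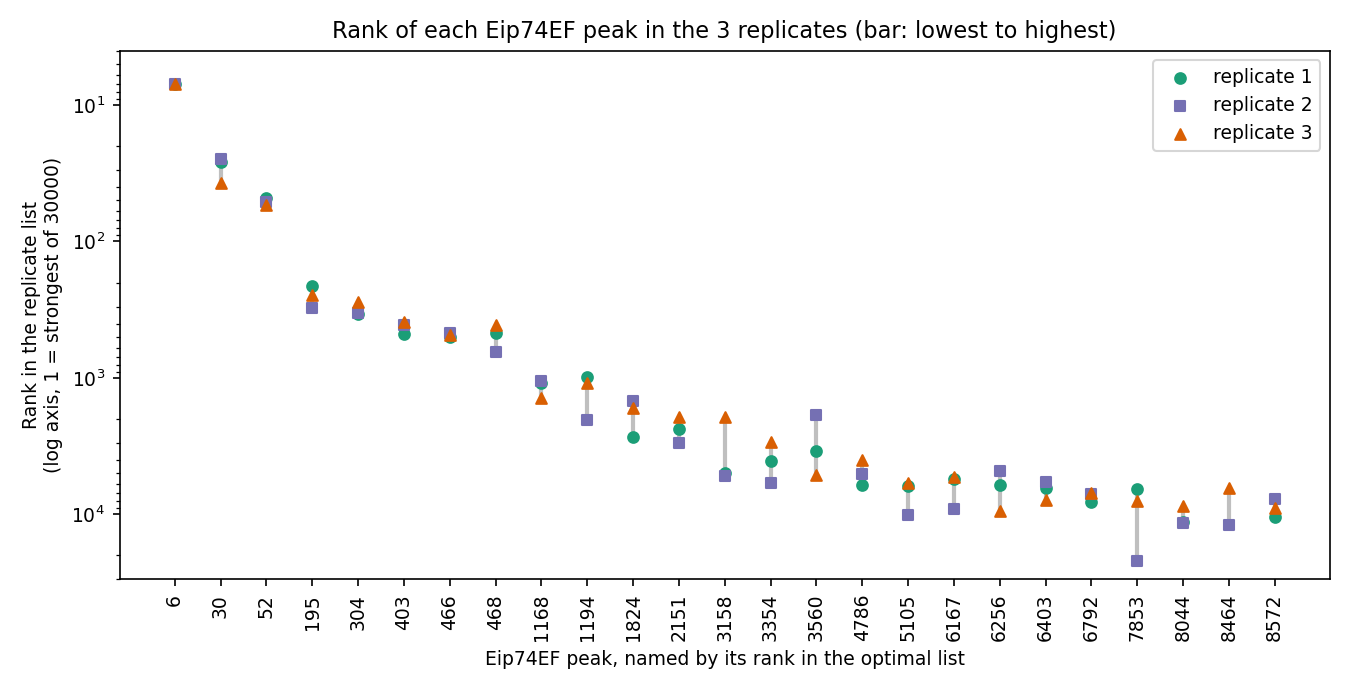
Rank of each Eip74EF summit in the list of each replicate (y axis, log, strongest at the top; symbols are the 3 replicates, bars run from the lowest to the highest rank), ordered by rank in the optimal list. The summit at rank 6 is at 7 in all 3 replicates, and the bar with the largest ratio of highest to lowest rank, 3.38, is that of the summit at rank 7853, which runs from 6479 to 21907.

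Nearly every summit recurred, at a share near that of all optimal peaks. A replicate summit within 100 bp was found in all 3 lists for 24 of the 25 (96%), against 91.1% of all optimal peaks. The exception was 17607267 (rank 8464), the companion of a stronger summit 202 bp away, which had no match in replicate 1. The match of 17588681 in replicate 3 was at the limit of 100 bp, and that of 17564914 in replicate 2 at 97 bp. With a limit of 50 bp, 19 of the 25 summits had a match in all 3 lists. The median distance to the matching summit was 20, 8 and 14 bp in replicates 1, 2 and 3, against 14, 12 and 8 bp over all optimal peaks. On the stricter measure, which keeps only as many of a replicate's strongest peaks as the optimal list holds, 18 summits (72%) were present in all 3 replicates, against 66.2% of all optimal peaks. A further 5 were present in 2 replicates, and 2 in only 1 of them. The optimal list was itself derived from the 3 replicates, so these shares are not independent of the choice of peaks. Replicate 2 held the fewest of them among its strongest, 20 (80%), against 22 (88%) in replicate 1 and 24 (96%) in replicate 3. Over all optimal peaks the shares were 84.1%, 84.5% and 86.2% in replicates 1, 2 and 3. Of the summits matched in all 3 lists, 17564914 had the largest ratio of highest to lowest rank, 3.38. It lay in an intron of 496 bp between shared coding exons and ranked 6479, 21907 and 7949.

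Below the optimal threshold the pooled list held 25 more summits in the region, 24 of them in introns and 0 within 500 bp of a start of the gene. The weakest optimal summit, at 17586524, had a signal of 378 at rank 8572, and the strongest one left out, at 17579898, had 340 at rank 9600. Of these 25 weaker summits 14 (56%) had a match in all 3 replicates, against 42.8% of all weaker pooled peaks. The strongest one left out was among them, at ranks 13156, 7165 and 10864. Weak intronic peaks of the gene thus lay on both sides of the threshold.

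Several summits often lay in 1 peak region. The 25 summits fell in 18 regions, 6 of which held 13 summits. The regions were wide, with a median of 834 bp against 482 bp over all regions of the optimal list, and ranged from 342 to 2147 bp. Of the 7 distances between neighbouring summits of a region, 6 were between 202 and 222 bp and 1 was 580 bp. Over the whole optimal list the smallest such distance was 199 bp and the median 206 bp, so spacing of this size is usual in the list. Whether such pairs are separate binding sites was not tested.

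The known DNA element of the EcR and ultraspiracle pair, an inverted repeat of the receptor site with a spacer of 1 base, was looked for on either strand, up to 100 bp from a summit. With at most 1 mismatch it was found at 0 of the 25 summits, against 4.84% of all optimal peaks and 13.4% of the 500 strongest. With at most 2 mismatches it was at 5 summits (20%), against 18.6%. The best match at the rank 6 summit, AGGTCTTTCACCC, had 2 mismatches and lay 63 bp away, outside the sequence shown above. At the rank 30 summit the best match, AGTTCGCTGCACC, also with 2 mismatches, was 5 bp from the summit and lies within the sequence shown, in lower case there because neither side is an exact receptor site.

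An exact 6-base receptor site was present at 11 summits (44%), against 36.1% of all optimal peaks and 52.0% of the 500 strongest. Of the 8 strongest Eip74EF summits, 5 had one, and those at ranks 6, 30 and 403 had none. At rank 52 it was AGGTCA, 7 bp from the summit, and at rank 195 it was TGAACT, 10 bp from the summit. The long promoter carried a pair of sites, AGTTCA with TGAACT, 18 and 7 bp from the summit, facing each other across a spacer of 5 bases. Any 2 receptor sites in that arrangement were found in 2 optimal peaks (0.0220%), this one included, a search made after the sequence had been seen. These are matches of letters, and binding at any of them was not measured.

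The pentamer GAGAG, recognised by the GAGA factor Trl, which keeps promoters and enhancers open, was within 100 bp of 14 summits (56%), against 38.0% of all optimal peaks and 52.6% of the 500 strongest. It was at 7 of the 8 strongest summits, the rank 6 summit being the exception, and at 7 of the other 17. Within 50 bp it was at 7 summits (28%), 3 of them among the 8 strongest, against 21.4% of all optimal peaks. Copies, on either strand, stand in the sequences shown for ranks 195, 403 and 1168. The hexamer CCGGAA, a core to which Ets factors such as E74 itself bind, was at 0 of the 25 summits, against 3.74% of all optimal peaks. The windows were richer in G and C than the gene around them. Their median G+C content was 52.2%, against 41.2% for the whole Eip74EF region, 46.8% for the windows of all optimal peaks and 49.3% for those of the 500 strongest. Of the 25 windows 20 lay above the median of all optimal peaks. The 8 strongest were between 50.2% and 59.7%, whereas 17578545, upstream of the RB start, had the lowest content, 24.4%.

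**Figure D3:**
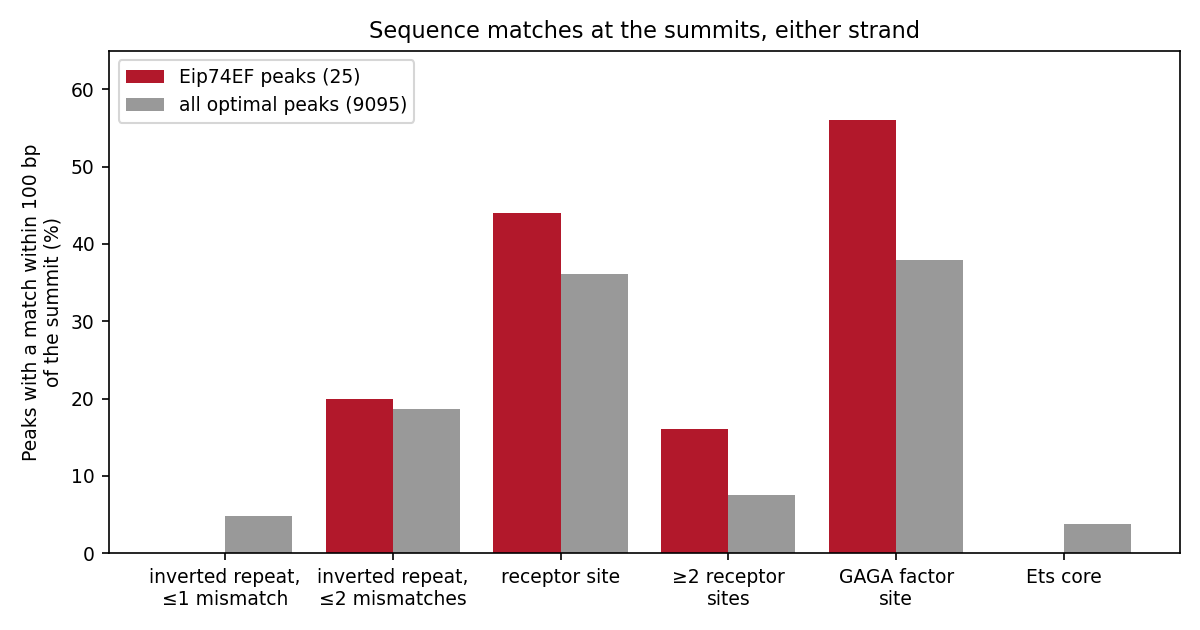
Share of summits with a sequence match within 100 bp on either strand (y axis, %), for the 25 Eip74EF peaks and for all 9095 optimal peaks. The inverted repeat with at most 1 mismatch and the Ets core are at 0 of the Eip74EF peaks, against 4.84% and 3.74% of all optimal peaks. At shares this low, few matches would fall among 25 peaks. The GAGA factor site is at 56% of the Eip74EF peaks against 38.0% of all optimal peaks.

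Among protein-coding genes, 30.7% held at least 1 optimal summit and 0.961% held 10 or more. With 25 summits Eip74EF was exceeded by 5 genes. By summits per kb of region (0.399) it was number 34 of the 134 genes with at least 10, whose median was 0.292, and by median signal percentile number 37. By the number of summits among the 500 strongest it shared place 3 with EcR, at 8 each, out of 25 and 43 summits. Above them stood Eip75B and, with 11 of its 24 summits, Hr4. The ecdysone regulators Eip75B, EcR and br spanned a wide range. Eip75B, which encodes the nuclear receptor E75, held 0.717 summits per kb with 27 of its 83 among the 500 strongest. EcR held 0.517 per kb. The early puff gene br, which encodes the Broad zinc-finger proteins, held 0.196 per kb, and 0 of its 18 summits were among the 500 strongest.

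The genes most like Eip74EF were taken from the 134 by distance over 5 standardised measures, which were summits per kb, the shares at own promoters and in introns, the median percentile and the share matched in all 3 replicates. They were tou, kibra, mam, Hr3 and psq, at distances of 0.623, 0.694, 0.729, 0.808 and 0.824. The mam gene encodes the Notch coactivator Mastermind, kibra an upstream regulator of the Hippo pathway, Hr3 an orphan nuclear receptor induced by ecdysone, and psq a BTB-domain factor that binds GAGA sequences. EcR lay at 1.23, br at 1.74 and Eip75B at 2.29. The strongest summit ranked 9 in mam, 56 in Hr3, 85 in tou, 964 in psq and 982 in kibra, against 6 in Eip74EF. Of the summits in tou (15) and mam (21), 1 each was among the 500 strongest. Hr3 had 4 of its 12 there, kibra 0 of 10 and psq 0 of 18, against 8 of 25 in Eip74EF. The share in Hr3 was thus close to that in Eip74EF.

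**Figure D4:**
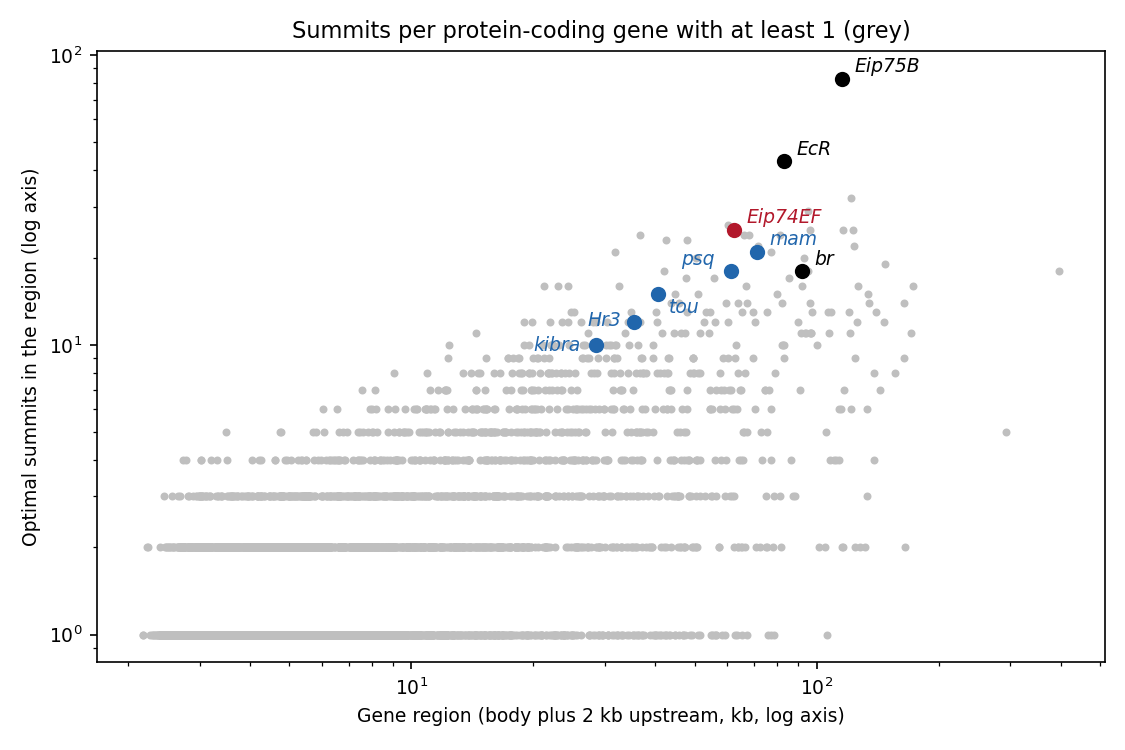
Number of optimal summits (y axis, log) against the length of the gene region in kb (x axis, log) for every protein-coding gene with at least 1 summit. Eip74EF (red, 25 summits in 62.7 kb) lies near the upper edge of genes of its length, below EcR and Eip75B and above br; blue points are the 5 genes nearest to it by the measures in the text.

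Beyond these limits, extending the region to 5 kb on both sides of the gene added 3 summits upstream, the strongest at rank 2769, and 1 downstream, at rank 7692. None of the added summits ranked as high as the long promoter summit at 1168.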

How the data were processed

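ChIP-seq peaks were analysed for 3 biological replicates of 1 group. Per the deposited notes, the authors made 1 peak list per replicate against a control, another from the pooled alignments of all 3, and the optimal list out of those, in dm6. No source used here names the aligner, the caller or its settings. Signal as deposited (column 7) has no stated scale and served only for ranks inside 1 list. The authors' −log10 q-value was 4.55 in every optimal peak and gave no order. Read depth is unknown, so no counting interval is given.

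Summits (start plus offset, written 1-based) were assigned with Python 3.11.15, numpy 2.4.6 and pandas 2.3.3 to Ensembl 115 genes, the outermost transcript starts and introns of the same assembly. Transposable elements were left out. Replicate summits within 100 bp counted as matches. Motifs were searched in windows of 201 bp, with the whole site inside the window. The searches and matching were tested on simulated data with planted answers. There was no contrast between groups, so no significance test was run. Shares over all 9095 optimal peaks serve as the comparison.

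The gene, the measures and the lists were chosen with earlier results of these data known. Peaks named in full were the 8 strongest, the weakest and the one nearest each start, with companion summits of a region added after their values were seen. Genes named were those touching the region, EcR, Eip75B, br and the 5 nearest of the genes with at least 10 summits. Hr4 was added after its values were seen. Alternatives changed the peak list, gene limits, match distance, replicates, promoter width, motif window and mismatches.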

Additional observations from a re-analysis of the deposited data

How the results depend on the processing

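Of 62 alternative values for 14 results, 45 stayed within 1.5 times the reported count or within the spread between replicates, and 17 did not. The strongest 4547 optimal peaks left 15 summits in the region, 13 of them in introns and 8 in the part read only by the long transcripts, and the whole pooled list gave 50; fewer or more peaks enter by construction. The strongest peak ranked 7 in the list of each replicate. The median percentile of the summits was 89.5 in the pooled list and 89.8, 90.0 and 93.5 in the lists of replicates 1, 2 and 3, which are longer than the optimal list. The inverted repeat was at 5 summits with 2 mismatches allowed. In a window of 50 bp on each side, receptor sites fell to 7 summits and GAGAG to 7, and in one of 200 bp CCGGAA rose to 1. Among the 250 strongest optimal peaks were 4 summits. The mean rank correlation over the 3 pairs of replicates was 0.931, and leaving out 1 replicate gave 0.891 to 0.961. Without 1 replicate, 24 to 25 summits were matched in both others, and 19 to 21 were among the strongest of both. Leaving out a replicate drops a requirement, so by construction these counts could not fall below the 24 and 18 found with all 3. The number of summits in the region was 24, 23 and 27 in the replicates' own strongest peaks. No paired comparison between groups was possible because the 3 samples form 1 group. The depth of the libraries is unknown.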
